A study of Gallus gallus with 20 samples.

Results

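The globin genes examined were HBA1, HBM and HBZ of the alpha type and HBBA and HBBR of the beta type, in adult chicken (Gallus gallus) kidney. They were listed by symbol, and each was taken from the row of the deposited transcript table that carries its symbol. All 5 had a row, 1 row each, among 19650 genes with a row. The series profiled RNA of chicken kidney and testis in 20 samples, 19 of which are small RNA libraries that were not analysed here. Those comprise 12 male and female adult kidney libraries, with and without periodate oxidation in 3 replicates each, 6 immunoprecipitates of the PIWI proteins CILI and CIWI, 2 of them from adult kidney and 4 from testis of 12 weeks, and 1 testis library of the same age. The measurements described here are those of the only RNA-seq library, which was made from adult kidney and is labelled with neither sex nor treatment. With 1 library no difference was tested between samples.

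Haemoglobin carries oxygen as a tetramer that pairs alpha-type with beta-type chains, each holding a haem group. The genes of each type lie in a cluster of their own, on different chromosomes, and birds change the genes in use between primitive red cells of the early embryo and the definitive red cells that follow. HBA1 encodes alpha-A, the main adult alpha chain, and HBM encodes alpha-D, a minor adult alpha chain that primitive red cells also make. HBZ encodes the embryonic alpha-type chain pi, HBBA the adult beta chain, and HBBR the embryonic beta-type chain rho. Red cells of birds keep their nucleus, and the kidney is rich in blood vessels.

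The library held 21832272 estimated reads over 79570 rows, and listed markers of kidney epithelium ranked high in it. The highest of these by TPM, SLC34A1, ranked 9, and the genes above it are not described here. All 6 proximal tubule markers with a row, of 11 listed, were at 438 TPM (reads divided by effective length and scaled so that the whole table sums to 1000000) or more. SLC34A1, the phosphate transporter of the proximal tubule, stood at 4055 TPM, 8.35 times the level of HBA1 (8.04 to 8.67). Assembled transcripts without a gene name held 25.9% of reads. Globin reads on such rows would be missing from the values below, and their number was not determined. Brackets after a value give its 95% interval, which covers counting error only.

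Transcripts of the 3 adult globins were abundant, and neither embryonic member had a read. HBA1 drew 2735 estimated reads and stood at 486 TPM (468 to 504). HBBA, the adult beta chain, drew 2979 reads and stood at 448 TPM (432 to 465). HBM, the alpha-D chain, drew 948 reads and stood at 197 TPM (185 to 210). By TPM these genes ranked 95, 107 and 293 among the 19650, so that HBA1 lay above 99.5%, HBBA above 99.5% and HBM above 98.5% of genes. In reads, which favour long transcripts, HBBA ranked 954, HBA1 1072 and HBM 3194. In bulk tissue, the number of red cells cannot be told apart from the amount of globin RNA per cell.

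HBZ and HBBR were at 0 reads. On rows as short as theirs, of 610 and 542 bases, 3 reads would have been 0.460 TPM for HBZ and 0.551 TPM for HBBR. That was the limit chosen for genes with no reads, and levels below it are not excluded. Such zeros are common in this library, since 23.9% of genes had no reads. With detection set at a minimum of 1 TPM and 3 reads, 3 of the 5 members were detected, beside 51.4% of all genes with a row.

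**Figure D1:**
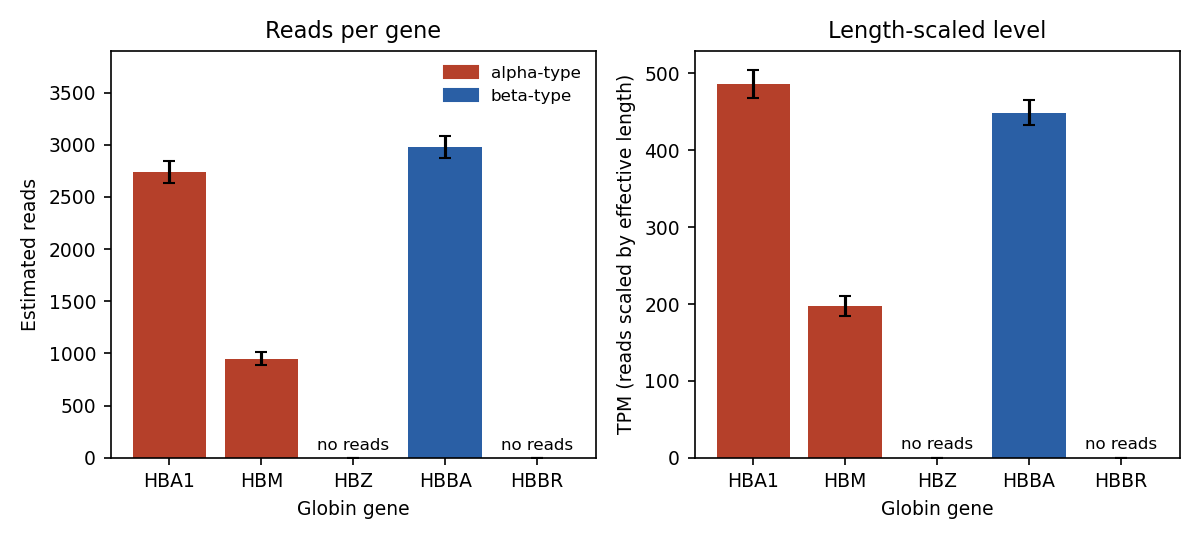
Estimated reads (left) and TPM (right) of the 5 globin genes in the 1 kidney library, as bars from 0, with red for alpha-type and blue for beta-type genes and error bars giving 95% Poisson intervals of counting error. HBBA has the most reads (2979) and HBA1 the highest TPM (486), while HBZ and HBBR have no reads.

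The members together held 6662 reads, 0.0305% (0.0298 to 0.0313, exact Clopper-Pearson interval) of the library, and 1131 TPM, 0.113% of all TPM. Their share of TPM is larger than their share of reads because their rows are short, and TPM divides by length. HBA1 made up 42.9% of the members' TPM, HBBA 39.6% and HBM 17.4%. Rows shorter than 300 bases took 35.4% of the table's TPM with 0.493% of its reads. Without them the members' summed level was 1752 TPM, more than 1.5 times as high, with their proportions unchanged by construction.

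Alpha-type globin RNA stood above beta-type RNA in each of the 3 length scalings tried. The summed level of HBA1, HBM and HBZ was 683 TPM and that of HBBA and HBBR 448 TPM, a ratio of 1.52 (1.45 to 1.60). With annotated in place of effective length the ratio was 1.42 (1.35 to 1.49), and in reads, with no allowance for length, it was 1.24 (1.18 to 1.30). Alpha-type genes thus held 60.4% of the members' TPM and 55.3% of their reads (54.1 to 56.5). The excess in TPM came mostly from HBM, since transcripts of the major adult alpha and beta chains were close to each other in level.

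HBA1 stood at 1.08 times the level of HBBA in TPM (1.03 to 1.14), but this order turned with the length used. In annotated length the ratio was 1.02 (0.972 to 1.08), an interval that includes 1. In reads it was 0.918 (0.871 to 0.967), with HBBA ahead. The HBA1 row has 554 bases and the HBBA row 618 bases. Salmon's effective length, which takes off bases where a fragment cannot start, was 355.8 and 419.7 bases. On such short rows it kept 64.2% of the length for HBA1 and 67.9% for HBBA. Which of these genes was the more abundant therefore rests on the length correction.

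HBM stood below HBA1 under every scaling tried. HBA1 was at 2.46 times the level of HBM in TPM (2.29 to 2.66), at 2.61 times with annotated length (2.43 to 2.82) and at 2.89 times in reads (2.68 to 3.11). HBM held 28.9% of the alpha-type TPM, and 25.7% of the alpha-type reads (24.3 to 27.2). Its row is the shortest of the members, at 502 bases, and kept 60.5% of its length, the lowest share among them. HBBA stood at 2.28 times the level of HBM in TPM (2.11 to 2.45).

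**Figure D2:**
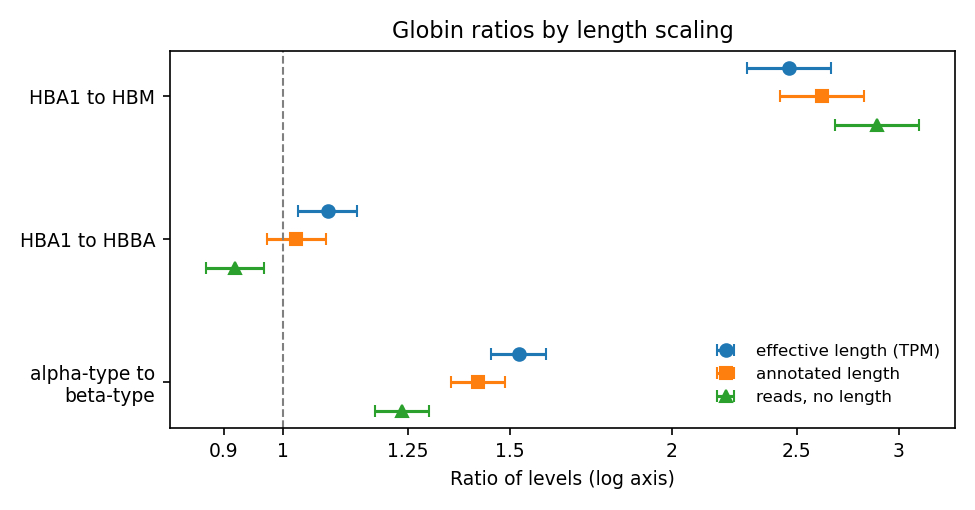
Ratios of globin levels on a log axis with 95% counting intervals, for reads scaled by effective length (circles), by annotated length (squares) and not scaled (triangles), with a dashed line at 1. The ratio of alpha-type to beta-type genes stays above 1 at 1.24 to 1.52, whereas that of HBA1 to HBBA lies on both sides, from 0.918 to 1.08.

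Adult globin transcripts exceeded embryonic ones within each type by wide margins, given as lower bounds because the embryonic members had no reads. Against the limit of 3 reads, HBA1 was at least 1055-fold and HBM at least 428-fold higher than HBZ in TPM. HBBA was at least 813-fold higher than HBBR. These bounds rest on the chosen limit and on the measured adult levels, and they allow for no counting error. Among the 3683 alpha-type reads, 0 fell on HBZ, which allows a share of up to 0.0815% at the limit of 3 reads, and among the 2979 beta-type reads 0 fell on HBBR, which allows up to 0.101%. The two-sided Clopper-Pearson intervals reach 0.100% and 0.124%.

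The beta cluster holds a further pair of genes with rows in the table, HBE and HBE1, which are not among the 5 members. HBE encodes epsilon, an embryonic beta-type chain, and HBE1, which RefSeq also calls HBBH, encodes the chain beta-H, known from the time around hatching. HBE had 2 reads, at 0.373 TPM (0.0452 to 1.35), and HBE1 had 1.05 reads, at 0.183 TPM (0.00442 to 0.973). HBBA was thus at 1202 times the level of HBE (333 to 9933) and at 2445 times that of HBE1 (461 to 101454), with intervals this wide because so few reads stand behind them. Both counts lie below 3 reads. Over the 7 globin rows of both clusters, the genes other than HBA1, HBM and HBBA held 3.05 of 6665 reads, 0.0458% (0.00928 to 0.131).

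Levels rose along the alpha cluster and peaked inside the beta cluster. In the RefSeq gene table of the GRCg7b build, used for order only, the alpha-type genes run HBZ, HBM (listed there as HBAD) and HBA1, between NPRL3 and TMEM8A. Row names place them on the plus strand of galGal6, so levels along the direction of transcription were 0, 197 and 486 TPM. The beta-type genes lie on the minus strand in the order HBBR, HBE1, HBBA and HBE, taking the orientation of the builds to be the same, and their levels were 0, 0.183, 448 and 0.373 TPM. The abundant beta-type transcript thus sits between neighbours with 1.05 and 2 reads.

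The genes beside the clusters differed between the loci. NPRL3, which encodes a subunit of the GATOR1 complex and whose introns hold the main enhancer of the alpha-globin genes, stood at 10.3 TPM (9.60 to 11.1). TMEM8A, a membrane protein gene on the other side, stood at 35.1 TPM (33.8 to 36.4), at 3.39 times the level of NPRL3 (3.12 to 3.69). In TPM, HBA1 was at 47.0 times NPRL3 (43.2 to 51.1) and at 13.8 times TMEM8A (13.1 to 14.6). HBM was at 19.1 times NPRL3 (17.3 to 21.0) and at 5.62 times TMEM8A (5.22 to 6.05). These ratios depend on length. In reads the order against TMEM8A turned, since it drew 2878 reads, HBA1 2735 and HBM 948. NPRL3 drew 715 reads, fewer than either globin. All 6 listed genes of the alpha-globin neighbourhood with a row, of 11 symbols listed, were detected, beside 51.4% of all genes with a row. Their median was 10.2 TPM. FAM234A stood at 25.1 TPM and RHBDF1 at 10.1 TPM. The lowest listed gene was the DNA repair glycosylase MPG at 3.91 TPM (2.89 to 5.17). The list was chosen by symbol, and FAM234A was not among the 3 genes to either side of the cluster in gene order. MRPL28 and AXIN1, which follow TMEM8A in that order, stood at 37.1 and 6.85 TPM.

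Beside the beta cluster, the olfactory receptor row OR51M1L was without reads (3 reads equal 0.249 TPM on it). On the other side, LOC107052458 had none either (3 reads equal 0.166 TPM), and the folate receptor gene FOLR1, the next gene along, had 2 reads at 0.0730 TPM. HBBA was therefore the only gene of that stretch with 3 or more reads, among the 7 genes with a row out of 10 in order.

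**Figure D3:**
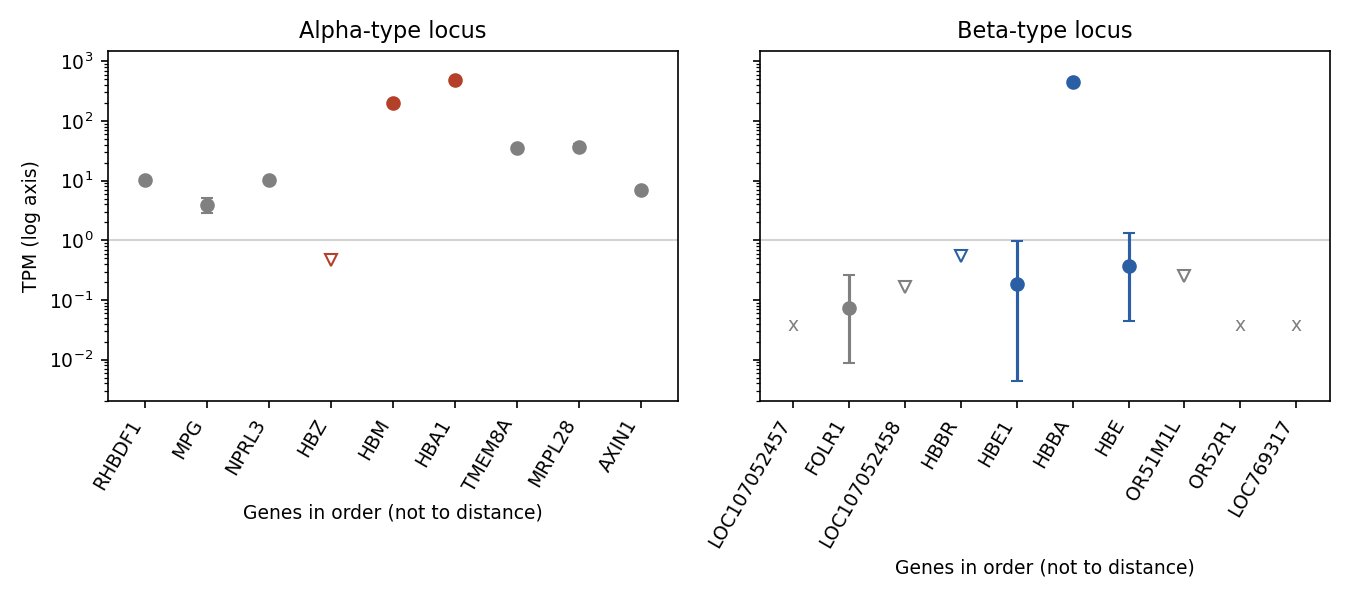
TPM on a log axis of the globin genes (red and blue) and of 3 neighbours to each side (grey) in the alpha-type and beta-type loci, in the direction of globin transcription and not to distance. Points have 95% counting intervals, open triangles mark the level of 3 reads for genes with no reads, crosses mark genes not analysed here, and the grey line is at 1 TPM. Neighbours of the alpha-type genes lie between 3.91 and 37.1 TPM, and HBBA stands alone above 1 TPM in its locus.

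In TPM, other genes of red cells were present at lower levels than the adult globins, apart from some enzymes that many tissues use. The iron exporter SLC40A1 stood above HBM but below HBA1 and HBBA. Over 6 lists of red cell genes, 52 of 71 symbols had a row, and 50 of these were detected, with a median of 11.9 TPM. For this and the list counts that follow, the share detected over all genes with a row was 51.4%. The median over all genes was 1.21 TPM and that over detected genes 11.2 TPM. Only 4 of the 52 stood above HBA1 and 5 above HBM in TPM.

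The erythrocyte membrane list had 12 of 14 genes with a row and 11 of these detected, with a median of 4.76 TPM. SLC4A1, the anion exchanger band 3 of red cells that acid-secreting cells of the mammalian collecting duct also carry, led it at 37.2 TPM (35.5 to 39.1). The membrane skeleton genes ADD1 and DMTN stood at 21.1 and 13.3 TPM, and GYPC, a glycophorin, at 13.7 TPM. EPB42, which links band 3 to the skeleton, was the member not detected, at 0.659 TPM (0.413 to 0.998). HBA1 was at 13.04 times the level of SLC4A1 in TPM (12.3 to 13.9), HBBA at 12.0 times (11.3 to 12.8) and HBM at 5.29 times (4.88 to 5.73). These ratios depend on length. That of HBA1 to SLC4A1 was 8.96 with annotated length and 1.62 in reads. It was 20.2 where only the most abundant of the 8 SLC4A1 rows was counted. In reads the order against HBM turned, since SLC4A1 drew 1687 reads, ADD1 1544 and HBM 948.

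Of 9 listed genes that make haem, the group each globin chain binds, 8 had a row and all 8 were detected, with a median of 19.9 TPM. CPOX led at 65.2 TPM, followed by ALAS1, the synthase for the initial step in most tissues, at 33.1 TPM and ALAD at 27.1 TPM. FECH, which inserts the iron, stood at 18.8 TPM. ALAS2, the synthase of red cells, was not analysed here. Of 15 listed genes of iron and haem handling, all 13 with a row were detected, with a median of 19.0 TPM. The iron exporter SLC40A1 stood at 241 TPM, between HBBA and HBM, and the iron-regulated aconitase ACO1 at 187 TPM. The haem oxygenase HMOX1 stood at 48.1 TPM and IREB2 at 30.5 TPM. In reads the order turned, since SLC40A1 drew 18117.5 and ACO1 9440, against 2979 for HBBA and 2735 for HBA1. CPOX at 1546 reads, IREB2 at 1479 and TFRC at 987 also lay above HBM at 948. TFRC, the transferrin receptor by which red cell precursors take up iron, stood at 20.1 TPM (18.9 to 21.4), and the mitochondrial iron importer SLC25A37 at 17.0 TPM.

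In TPM, regulators of red cell formation with a row all stood below the adult globins. In reads, JAK2 at 2164 and STAT5B at 1191 lay above HBM at 948. Of the erythroid transcription factors 7 of 14 had a row, 6 were detected and the median was 2.22 TPM. LMO2 stood at 16.9 TPM, TAL1 at 9.64 TPM and ZFPM1, the GATA cofactor FOG, at 4.23 TPM, and endothelial or other blood cells also express these. BCL11A, a repressor of fetal globin genes in human red cells, stood at 2.22 TPM. GFI1B was at 1.01 TPM (0.608 to 1.58) from 19 reads, and HEMGN, a nuclear protein of red cell precursors, had 1 read at 0.0863 TPM (0.00218 to 0.481). GATA1, KLF1 and NFE2 were not analysed here. In the erythropoietin signalling list, 4 of 7 genes had a row and all of these were detected, at a median of 14.9 TPM. STAT5B stood at 26.3 TPM, JAK2 at 20.5 TPM, KITLG at 9.30 TPM and the stem cell factor receptor KIT at 4.02 TPM, none of which is particular to red cells.

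Of 12 listed enzymes that red cells rely on, 8 had a row and all 8 were detected. Their median over these 8, 358 TPM, was the highest of these lists. The 4 that exceeded HBA1 were catalase (CAT) at 1526 TPM, CYB5A at 1094 TPM, the peroxiredoxin PRDX1 at 784 TPM and the carbonic anhydrase CA2 at 580 TPM, all of them also enzymes of kidney epithelium. BPGM, which makes the bisphosphoglycerate that sets oxygen affinity in mammalian red cells, stood at 7.06 TPM (6.46 to 7.70).

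Of 4 listed globins outside red cells, 3 had a row, and these stood near or below 1 TPM. NGB, the nerve cell globin neuroglobin, stood at 1.32 TPM (0.909 to 1.85) from 33 reads, all of them on 1 of its 3 rows, and HBA1 was at 368 times its level (261 to 536). MB, the muscle oxygen store myoglobin, had 1 read at 0.106 TPM, and ADGB, androglobin, had 4 reads at 0.0474 TPM. Of the 3, NGB was detected.

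Of 11 listed endothelial markers, from the vessels that hold the blood, 9 had a row. All 9 were detected, at 12.5 to 45.2 TPM and a median of 21.5 TPM. PLVAP stood at 45.2 TPM, the adhesion protein PECAM1 at 38.8 TPM, VWF at 30.1 TPM and the receptor KDR at 23.6 TPM. HBA1 was at 12.5 times the level of PECAM1 in TPM (11.8 to 13.3). In reads they were closer, at 2735 for HBA1 and 2116 for PECAM1 over its 15 rows. VWF drew 4095 reads, more than HBA1 or HBBA. PECAM1 and KDR, the latter at 1906 reads, drew more than HBM at 948. How much of the globin RNA came from blood left in the vessels was not tested.

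**Figure D4:**
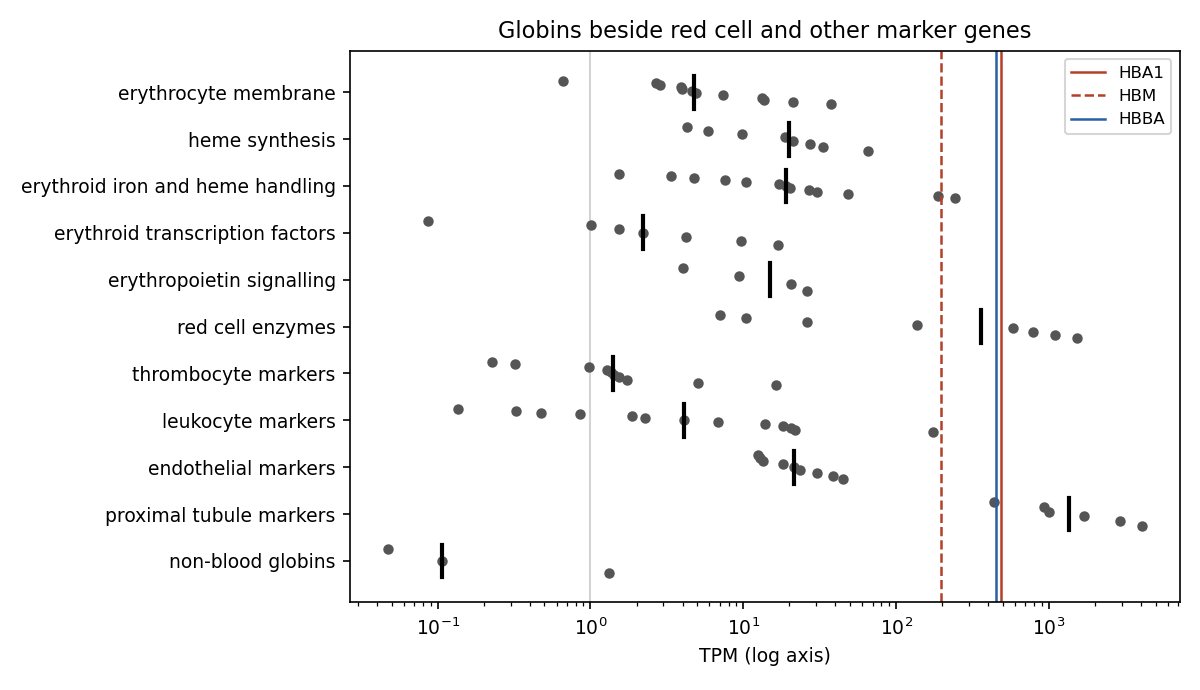
TPM on a log axis of each gene with a row in 11 marker lists (points), with list medians as black bars, the levels of HBA1, HBBA and HBM as vertical lines, and a grey line at the threshold of 1 TPM. The genes above the HBM line belong to the red cell enzyme, iron handling and proximal tubule lists, and CD74, at 173 TPM, is the highest of the leukocyte markers.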

How the data were processed

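RNA was extracted with a kit that keeps small RNA, and the library was made by a TruSeq protocol, per the labels' protocols. The authors' deposited TPM values and estimated counts came from Salmon on galGal6, per the submitters' processing notes; its version and library type: not given in the sources used here. Estimated counts need not be whole, because Salmon splits shared reads; they were used unrounded except for intervals. Deposited lengths (other than TPM and counts) are annotated and effective lengths in bases. The name of the deposited table holds a mouse strain label, while its row names and the sample's labels are of chicken, and the labels were followed. TPM was summed over rows of a symbol. Intervals are exact Poisson for levels, Clopper-Pearson for shares and conditional binomial for ratios, at 95%, with Python 3.11.15 and scipy 1.17.1. Coverage of the Poisson and ratio intervals was checked on simulated Poisson reads. That check cannot test whether reads of this library follow a Poisson distribution, since the simulated reads were drawn from one. Nor can it test Salmon's splitting of reads or its length correction, because the simulated reads hold neither. Intervals cover counting error only, since reads lacking molecular identifiers need not be independent molecules. No p-value was computed. Gene neighbours and synonyms came from RefSeq (GRCg7b).

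Members and the 17 gene lists were chosen with earlier results of these data known. Named genes were every member, every other globin gene with a row, the 4 genes of highest TPM in each list, its genes with no reads where these were at most 3, and both cluster neighbours; a few of these are not reported here. Others (EPB42, FECH, TFRC, SLC25A37, GFI1B, HEMGN, BPGM, MPG, MRPL28, AXIN1, FOLR1, CD8A, CD4, MPO, LYZ, CD79B, F13A1) were named after their values were seen. Promoter motifs and protein identity were planned and not analysed here. The alternatives tried were annotated length, reads without length, the most abundant row, other TPM totals, detection thresholds and a limit of 5 reads.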

Additional observations from a re-analysis of the deposited data

How the results depend on the processing

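No paired analysis was possible because there is 1 library. Scaling moved the members' summed level from 1131 TPM to 1301 with annotated length, 1756 over rows of named genes only, 1602 without the 10 genes of highest TPM and 1752 without rows shorter than 300 bases, and it was 305.1 per 1000000 reads in reads. The ratio of alpha-type to beta-type levels, 1.52, was 1.42 with annotated length and 1.24 in reads. The ratio of HBA1 to HBBA, 1.08, was 1.02 with annotated length and turned to 0.918 in reads. That of HBA1 to HBM, 2.46, rose to 2.89 in reads. With a limit of 5 reads the lower bounds fell to 633-fold for HBA1 over HBZ and 488-fold for HBBA over HBBR, and with annotated length they were 1004-fold and 871-fold. The most abundant row alone left the members' values as they were, since each has 1 row. The 3 detected members were 3 under each detection threshold tried, and the 50 detected red cell genes were 35 at 5 TPM and 51 at 0.5 TPM or with at least 10 reads. Over all 19650 genes the 10098 detected were 7235 at 5 TPM, 11057 at 0.5 TPM and 11862 with at least 10 reads. The planned ratio of HBA1 to ALAS2 was not run. Depth limits HBZ, HBBR, HBE and HBE1, all under 3 reads, and the lack of a replicate limits every value.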

Other observations

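Markers of the other blood cells were measured beside the globins. Among 13 leukocyte markers, 9 were detected and the median was 4.07 TPM. The invariant chain CD74, which epithelial and other antigen-presenting cells can also make, stood at 173 TPM, just under HBM. It was followed by the T cell genes CD3D at 21.8 TPM and CD3E at 18.1 TPM and by LCP1 at 20.5 TPM. The T cell genes CD8A and CD4 stood lower, at 1.87 and 0.857 TPM, and CD4 was below the detection threshold. MPO, at 0.474 TPM from 19 reads, was not detected either, nor were LYZ with 2 reads and CD79B with 3. Of 12 listed thrombocyte markers, genes of the nucleated clotting cells of birds, 10 had a row and 7 of those were detected, the median being 1.40 TPM. GATA2, which endothelial cells also express, led at 16.3 TPM, and the integrin genes ITGB3 and ITGA2B stood at 5.05 and 1.53 TPM. F13A1 was lowest at 0.228 TPM.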
